A study of Mus musculus with 8 samples.

Results

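The comparison set Zbtb32 knockout against wild type in Tim-3+ tumor CD8+ T cells and covered 12559 of 13126 rows of the deposited table, those with a mean of at least 10 normalized counts over 4 libraries. Donor cells of both genotypes were naive OT-I cells, that is CD8+ T cells with a transgenic receptor for an ovalbumin peptide. Zbtb32 knockout (KO) and wild-type (WT) cells were mixed and given to B6 mice 1 day before B16-OVA, a melanoma line that expresses ovalbumin, was implanted under the skin. All 4 libraries therefore come from OT-I cells that shared hosts and tumors of this kind. Tim-3+ OT-I cells, which the labels call terminally exhausted (Ttex), were sorted from the tumors 30 days after implantation, with 2 libraries for each genotype. The series also holds 4 libraries of all sorted OT-I cells, which were not used here. The labels do not tie the replicates to separate animals or pools, so p-values measure only the spread between these libraries, which may be technical. The age of the mice and the part of Zbtb32 that was deleted are not given in the sources used here.

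Exhausted CD8+ T cells arise under lasting antigen exposure in tumors and chronic infection. A progenitor subset keeps the transcription factor TCF1, the product of Tcf7, and can renew itself, while terminally exhausted cells lose TCF1 and carry many inhibitory receptors, among them Tim-3, the product of Havcr2. Zbtb32 encodes a transcription factor with a BTB domain and zinc fingers, a family that also includes Bcl6 and Bach2.

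Depth was 51.6 to 59.2 M reads per library, recovered from the deposited values. Each value is a normalized count, a count scaled by its library's size factor, and values in pairs are given for replicates 1 and 2 in that order. Fold changes are KO-labelled minus WT-labelled on the log2(value + 1) scale, on which changes of low genes come out too small. A gene was called at a limma adjusted p under 0.05 (limma-trend, Benjamini-Hochberg over all 12559 genes). The median fold change over all tested genes was -0.06, and 42.6% of the genes had a positive one. The genes next to the minimum were Cacna1d, just inside with 6.46, 8.12, 11.3 and 14.1, and Mir3082, just outside with 4.31, 8.12, 14.1 and 13.2.

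The libraries carried the RNA of CD8+ T cells and of the sort marker. Cd8a, a chain of the CD8 co-receptor, stood at 69206 and 67936 normalized counts in the KO-labelled pair and at 73901 and 70792 in the WT-labelled ones. Cd3e, a chain of the receptor complex, stood between 74697 and 76255 in all 4 libraries. Havcr2, on chromosome 11 from 46454935 to 46481255 (mm10, plus strand), was at 10828 and 10642 normalized counts in the KO-labelled pair and at 15862 and 15935 in WT-labelled libraries. Every KO-labelled library was lower, at a log2 fold change of -0.57 ± 0.11 (SE, n = 2 libraries per genotype), but the gene was not called (limma adjusted p = 0.182). DESeq2 on the recovered reads called it lower (adjusted p = 0.0232).

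Zbtb32 RNA did not stand lower under the KO label. The gene, on chromosome 7 from 30589681 to 30598909 (mm10, minus strand), was at 6822 and 5715 normalized counts in the KO-labelled pair and at 3976 and 3951 in WT-labelled ones. Both KO-labelled libraries were higher, with a log2 fold change of 0.66 ± 0.13 (SE) that limma did not call (adjusted p = 0.183) and DESeq2 did (adjusted p = 0.00388). A gene-level value also takes in reads from exons outside a deleted part, so this value alone checks the genotype labels in neither direction. The groups are therefore named by their labels, as KO-labelled and WT-labelled libraries.

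The 2 KO-labelled libraries were less alike than the WT-labelled ones. Over all tested genes, the median absolute log2 difference between replicates was 0.288 in the KO-labelled pair and 0.167 in the WT-labelled pair. Counting error alone would give 0.0396 and 0.0364. Replicates lay at least 2-fold apart for 1384 genes (11.0%) in the KO-labelled pair and for 368 genes (2.93%) in the WT-labelled pair, and the KO-labelled difference was the wider one for 8443 genes (67.2%). With only 2 libraries a genotype, a difference in spread between the pairs cannot be tested over samples, and these values describe the libraries.

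**Figure D1:**
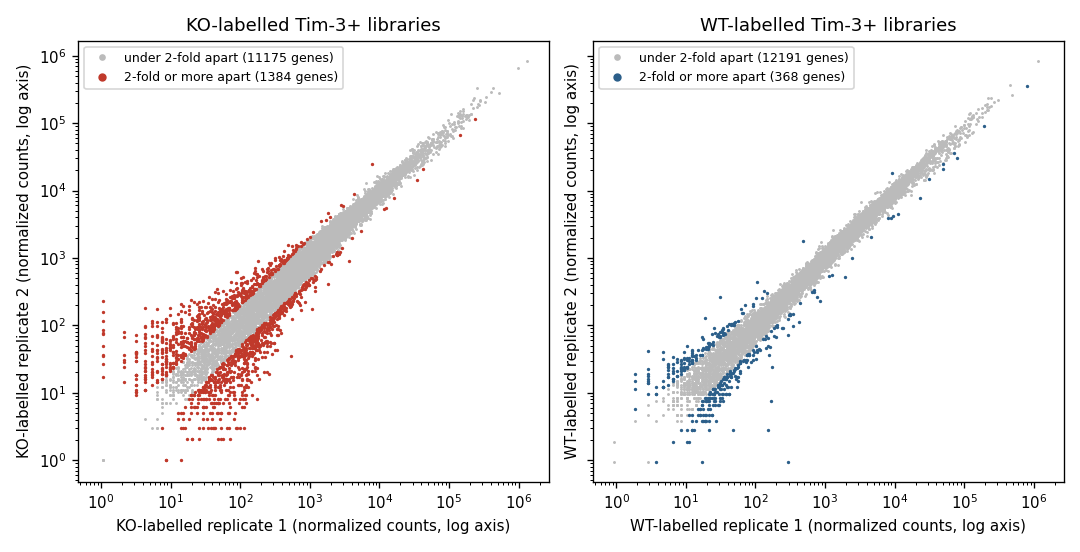
Normalized counts of each tested gene in replicate 1 (horizontal, log axis) and replicate 2 (vertical, log axis) of the KO-labelled and the WT-labelled pair, 1 point per gene. The KO-labelled cloud is wider: its median absolute log2 difference is 0.288, against 0.167 in the WT-labelled pair.

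KO-labelled replicate 1 stood as far from its partner as from the other genotype. Its median absolute log2 difference was 0.288 to KO-labelled replicate 2, 0.289 to WT-labelled replicate 1 and 0.37 to WT-labelled replicate 2. For KO-labelled replicate 2 the differences were 0.239 and 0.256 to WT-labelled replicates 1 and 2, smaller than the 0.288 to its own partner. Pearson's r of the log2 values over genes, which are not independent replicates, was 0.9636 within the KO-labelled pair, 0.9904 within the WT-labelled pair and 0.9624 to 0.9737 between genotypes.

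The gap between the pairs was widest for genes of low and middle level. For 1340 genes with a mean of 100 to 300 normalized counts, the median replicate difference was 0.55 in the KO-labelled pair and 0.24 in the WT-labelled pair, where counting error alone would give 0.108 in either. In this range 24.9% of genes lay at least 2-fold apart in the KO-labelled pair and 3.06% in the WT-labelled pair. From 1000 to 3000 normalized counts the medians were 0.23 and 0.14, and 34 and 3 of 3391 genes lay at least 2-fold apart. For 257 genes at 30000 or more, the medians were 0.27 and 0.23.

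**Figure D2:**
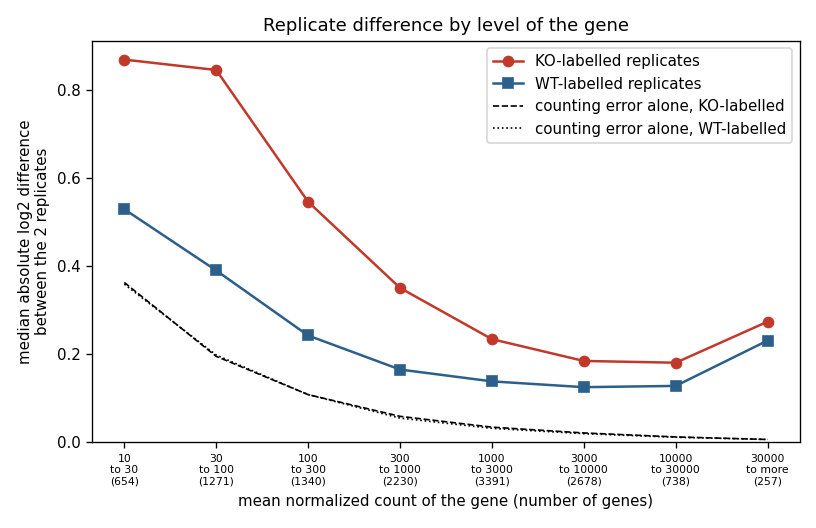
Median absolute log2 difference between the 2 replicates (vertical) of genes grouped by mean normalized count (horizontal, number of genes in brackets), for the KO-labelled and WT-labelled pairs, with the value that counting error alone would give. The KO-labelled line lies above the WT-labelled one at every level, with 0.55 against 0.24 at 100 to 300 normalized counts, and both lie above counting error.

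Single genes show how far the KO-labelled replicates could part. Vcam1, an adhesion molecule of endothelial and stromal cells, had 6.46 and 174 normalized counts in the KO-labelled pair, low in replicate 1, and 106 and 127 in the WT-labelled pair. Exosc6, a subunit of the RNA exosome, was at 532 and 35.5 in the KO-labelled pair and at 106 and 446 in the WT-labelled pair, so the replicates of both genotypes parted. Spns3, a member of a sphingolipid transporter family, was at 259.7 and 19.3 in the KO-labelled pair and at 147 and 137 in the WT-labelled pair. In each of these 3 genes the genotypes overlapped.

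The same held for Zfp442, Tsacc and Tnnt1, while Fam212b and Lmntd2 had both KO-labelled libraries below both WT-labelled ones. Lmntd2 stood at 8.62 and 112 in the KO-labelled libraries and at 184 in each WT-labelled library, a log2 fold change of -2.49 beside a difference of -3.55 between the KO-labelled replicates. In the WT-labelled pair the widest differences, beside Exosc6, were those of Aqp1, a water channel, at 31.1 and 265 normalized counts, of Sco2, a copper chaperone of cytochrome c oxidase, at 158 and 35.8, and of Rab11fip2, a Rab11 effector in membrane recycling, at 290.1 and 71.6. Aqp1 parted in the same way in the KO-labelled pair, at 35.6 and 265, low in replicate 1 and high in replicate 2 of both genotypes.

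Fold changes were set beside this spread. Of the genes with a mean of at least 100 normalized counts, 371 had a log2 fold change of 1 or more in size, 270 higher and 101 lower in KO-labelled libraries. In 144 of the 371 the KO-labelled replicates differed by at least 0.5 times the fold change, and in 47 the WT-labelled replicates did. In 202 of them, 166 higher and 36 lower, both pairs stayed below that limit. Among the 41 genes past 2-fold at a mean of at least 1000, 39 were higher and 36 had such close replicates.

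The test called 3 of the 12559 genes, which is 0.0239%, with 2 higher (0.0159%) and 1 lower (0.00796%). At an unadjusted p under 0.05 there were 852 genes higher (6.78%) and 937 lower (7.46%), 1789 in all. With the libraries centred on their median gene limma called 14 higher and 1 lower. Ctse, the gene of cathepsin E, an aspartic protease of endosomes, fell. It stood at 357 and 282 normalized counts in the KO-labelled pair and at 5066 and 4452 in the WT-labelled libraries. The means were 319 ± 52.6 and 4759 ± 434 (SD, n = 2), which gave a log2 fold change of -3.90 ± 0.19 (SE) and a limma adjusted p of 0.00468. Each WT-labelled value lay far above each KO-labelled one, and the change was also the most negative among genes with close replicates and a mean of at least 100. Without KO-labelled replicate 2 its limma adjusted p was 0.0647. Its mm10 position is chromosome 1, 131638306 to 131675505, on the plus strand.

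Tcf7, which encodes TCF1, rose. Its values were 2646 and 2536 normalized counts in the KO-labelled pair and 651 and 678 in WT-labelled libraries, so replicates were nearly equal and the genotypes did not overlap. The log2 fold change was 1.96 ± 0.15 (SE), with a limma adjusted p of 0.0471. The call was lost without either KO-labelled replicate (limma adjusted p = 0.150 and 0.0832), at fold changes of 1.93 and 1.99. Its mm10 position is chromosome 11, 52252371 to 52283014, on the minus strand.

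Pmel, a structural protein of melanosomes that is a product of pigment cells, rose as well. It stood at 20652 and 21371 normalized counts in the KO-labelled pair and at 8235 and 7610.5 in WT-labelled libraries, a log2 fold change of 1.41 ± 0.12 (SE, limma adjusted p = 0.0471). Without KO-labelled replicate 1 or 2 the limma adjusted p was likewise 0.150 and 0.0832, at fold changes of 1.43 and 1.38. In mm10 it spans 128704195 to 128720238 of chromosome 10, plus strand. Pmel is a marker of melanoma cells, and values of the 15 melanoma markers tested are given further on.

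A further 17 genes had a limma adjusted p between 0.05 and 0.1, of which 16 were higher in KO-labelled libraries. Of these, 11 shared the lowest value, 0.0508: Lad1, Dapl1, Trbv12-1, Hba-a2, Cd63, H2-Aa, H2-Eb1, Dct, Syt4, H2-Ab1 and Cd74. On the recovered reads edgeR's quasi-likelihood test called 2 genes (0.0159%), Ctse and Tcf7. DESeq2 called 317 genes higher (2.52%) and 64 lower (0.510%). In each of the 381 DESeq2 calls the genotypes did not overlap, and in 298 the replicates of both genotypes were close by the limit above, while in 56 the KO-labelled replicates differed by at least 0.5 times the fold change. Lack of overlap was common: over all tested genes 19.9% lay above and 28.2% below without overlap.

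The genes with the largest fold changes among those with close replicates are given next, of which limma called only Ctse. The highest was that of Apoa1, the main apolipoprotein of high-density lipoprotein, at 189 and 351 normalized counts in the KO-labelled pair and at 12.2 and 2.83 in WT-labelled ones. Dapl1, the gene of death-associated protein-like 1 and part of memory T cell signatures, was at 912 and 682 against 125 and 94.2, a log2 fold change of 2.85 ± 0.31 (SE, limma adjusted p = 0.0508). In both genes each KO-labelled library was several times above each WT-labelled one.

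Genes of other blood cells were among those higher. Wdfy4, which dendritic cells need for cross-presentation, was at 518 and 305 normalized counts in the KO-labelled pair and at 43.3 and 23.5 in WT-labelled libraries. Flt3, a receptor tyrosine kinase of dendritic cells and blood progenitors, was at 217 and 192 against 31.1 and 8.48. The globin genes Hba-a2, Hba-a1 and Hbb-bt, near-identical in part to their copies and therefore uncertain as single genes, had log2 fold changes of 2.44, 2.37 and 2.32.

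The other genes that were higher in this way were Ly6k (3.26), a GPI-anchored Ly6 protein, Pde2a (2.59), a cyclic nucleotide phosphodiesterase, Ahnak2 (2.53), a large scaffold protein, and Ppfia4 (2.32), a liprin. A second row named Rnf26 had a log2 fold change of 3.27, while the first row of that name, for a RING finger ubiquitin ligase, stood at -0.06, so that entry is uncertain. Limma called none of these.

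The negative changes after that of Ctse were smaller. Map2, a microtubule-associated protein best known from neurons, was at 43.1 and 58.9 normalized counts in the KO-labelled pair and at 236 and 301 in WT-labelled ones. Dgkq, a diacylglycerol kinase, was at 149.8 and 112 against 528 and 539.7. Pagr1a, a component of a histone methyltransferase complex, was at 119.6 and 221 against 701 and 798. In these 3 genes both KO-labelled libraries were lower, with log2 fold changes of -2.38, -2.04 and -2.19, and none was called by limma (adjusted p = 0.134, 0.126 and 0.132).

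Marveld2, the tight junction protein tricellulin, stood at 171 and 185 normalized counts against 615 and 541, and Atp2b2, a plasma membrane calcium pump, at 95.9 and 132 against 409.8 and 318. The remaining negative changes were those of Lrrc49 (-2.21), Arhgef25 (-1.59), a guanine nucleotide exchange factor, Rasd2 (-1.53), a small GTPase, Fam120c (-1.36), Zfp119a (-1.30) and Arrdc2 (-1.29), an arrestin domain protein.

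**Figure D3:**
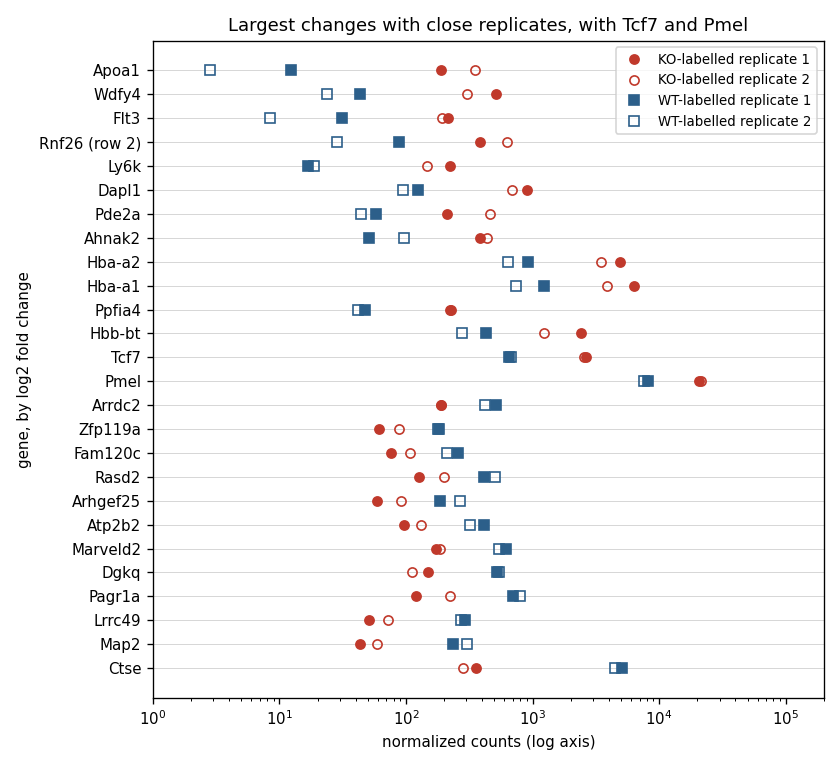
Normalized counts (log axis) in the 4 libraries of the 12 most positive and 12 most negative log2 fold changes with close replicates, with Tcf7 and Pmel, ordered by log2 fold change. In each gene shown the KO-labelled and WT-labelled libraries are apart, with Ctse at 282 to 357 against 4452 to 5066.

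Genes of progenitor exhausted and memory T cells stood higher in KO-labelled libraries as a list. Of 29 members tested, limma called 1 higher, Tcf7, and none lower, and DESeq2 called 11 higher and none lower. At an unadjusted limma p under 0.05 there were 11 higher and 0 lower. Over all tested genes DESeq2 called 2.52% higher, and 6.78% were higher unadjusted. The median log2 fold change was 0.55, against -0.06 over all genes, and it was 0.23 without KO-labelled replicate 1. Both KO-labelled libraries lay above both WT-labelled ones in 19 members and below them in 2, where all tested genes gave 19.9% above and 28.2% below. The list was drawn up with earlier results of these data known.

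Among the members were surface, transcription factor and ligand genes. Ccr7, a lymph node chemokine receptor, was at 4379.8 and 5241 normalized counts in the KO-labelled pair and at 2629 and 2534 in the WT-labelled pair, a difference of 0.89 on the log2 scale (limma adjusted p = 0.132). Id3, an inhibitor of E proteins kept in memory precursors, was at 219.8 and 189 against 64.1 and 69.7 (1.59). In both genes the lowest KO-labelled value was well above the highest WT-labelled one.

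Bach2, a repressor that holds back effector differentiation, was at 2182 and 1289 normalized counts in the KO-labelled pair against 848 and 810.0, so the KO-labelled replicates were wide apart. Xcl1, a chemokine that draws dendritic cells with the receptor Xcr1, was at 14115 and 9706 against 5921 and 3879.7. Tnfsf8, the ligand of CD30, was at 570.0 and 503 against 206 and 223. DESeq2 also called Klf2, Foxp1 and Bcl6, with log2 fold changes of 0.70, 0.68 and 0.80.

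Neither limma nor DESeq2 called the next 4 genes of the list. Il7r, the interleukin-7 receptor, was at 1415 and 1488 normalized counts in the KO-labelled pair and at 1599 and 1337 in WT-labelled ones. Lef1, a relative of Tcf7, was at 2940.4 and 2208 against 2291 and 2259. The genotypes overlapped in both of these. Slamf6, a surface marker of progenitor exhausted cells, was at 1527 and 982 against 912 and 770.5, higher without overlap at a log2 fold change of 0.55 (adjusted p = 0.381 with limma and 0.262 with DESeq2). Eomes, a T-box factor of exhausted cells, was lower without overlap, at 5763 and 7300.4 against 8128 and 8433.

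Promoters are shown for 2 members of this list that DESeq2 called. Each has a single window in the RefSeq table (GRCm38.p6) with a start site near the GENCODE start of the gene (offsets 0 and -5 bases). Called members with no window or more than 1, with a window further from that start, or on 1 excluded chromosome, were not shown. Windows were found for 23 of the 29 members tested. Each sequence gives the 250 bases before the start site, 5′ to 3′ on the gene's strand, with matches to 5 motifs in capitals, searched on both strands. Dapl1 lies at chr2:59484403-59484652 (plus strand) and Xcl1 at chr1:164935523-164935772 (minus strand).
Dapl1: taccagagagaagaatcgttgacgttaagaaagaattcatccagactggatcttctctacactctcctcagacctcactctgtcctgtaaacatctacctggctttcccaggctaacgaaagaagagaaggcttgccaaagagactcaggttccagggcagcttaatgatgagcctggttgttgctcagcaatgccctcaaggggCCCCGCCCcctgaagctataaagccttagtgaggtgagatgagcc
Xcl1: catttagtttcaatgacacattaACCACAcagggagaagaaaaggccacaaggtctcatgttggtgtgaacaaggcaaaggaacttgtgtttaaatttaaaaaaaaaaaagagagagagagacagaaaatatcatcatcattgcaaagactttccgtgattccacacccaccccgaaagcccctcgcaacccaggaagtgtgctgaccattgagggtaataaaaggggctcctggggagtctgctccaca
The capitals mark 1 match to the KLF/SP motif CCCCGCCC in Dapl1 and 1 match to the RUNX motif TGTGGT, on the opposite strand, in Xcl1. The other motifs were TCF/LEF (CTTTGA), ETS (ACCGGAA) and AP-1 (TGANTCA), and no matches overlapped. Of 32851 windows of all genes, 16.1% held the KLF/SP motif, 14% the RUNX motif, 13.8% TCF/LEF, 2.89% ETS and 6.75% AP-1. Of the 37 windows of the list's members, 12 held KLF/SP, 5 TCF/LEF, 2 ETS, 1 RUNX and 0 AP-1. A match is only a run of letters, and no binding was measured here.

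Inhibitory receptors and exhaustion factors stood slightly lower. Of 28 members tested limma and edgeR called none (7 lower and 0 higher at an unadjusted limma p under 0.05), and DESeq2 called 2 lower, Havcr2 and Cd200r1, and none higher. The median log2 fold change was -0.17, or -0.09 with the libraries centred on their median gene, with both KO-labelled libraries below both WT-labelled ones in 17 members and above them in 3. Over all tested genes 28.2% lay below and 19.9% above, 7.46% were lower at an unadjusted p under 0.05, and DESeq2 called 0.510% lower. Cd200r1, the receptor of CD200, was at 333 and 413 normalized counts in the KO-labelled pair and at 808 and 695 in WT-labelled ones. Pdcd1, which encodes PD-1, was at 38464 and 34834 against 44350.5 and 42477, a log2 fold change of -0.25.

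Tox, a factor required for exhaustion, was at 9319 and 9203 normalized counts in the KO-labelled pair against 10562 and 10206, and Entpd1, the ectonucleotidase CD39, at 5237 and 5191 against 6512 and 6218. The genotypes did not overlap in either, at log2 fold changes of -0.17 and -0.29 (limma adjusted p = 0.513 and 0.336). Lag3, an inhibitory receptor for MHC class II, overlapped between genotypes, at 50082 and 45392 against 54465 and 48241.

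Cytotoxic and cytokine genes showed no common direction. Of 32 members DESeq2 called 4 higher (Gzmm, Csf2, Ccl9 and Gzma) and 2 lower (Csf1 and Spp1), limma and edgeR called none (4 higher and 2 lower unadjusted), and the median was 0.10. Without KO-labelled replicate 1 that median was -0.10, and without WT-labelled replicate 2 it was -0.04. The shares over all tested genes were 2.52% higher and 0.510% lower with DESeq2, and 6.78% higher and 7.46% lower unadjusted. Gzmb, which encodes granzyme B, was at 73698 and 61346 normalized counts in the KO-labelled pair and at 82991 and 76182 in WT-labelled ones. Ifng, interferon gamma, was at 15219 and 13085 against 15444 and 15759. Prf1, which encodes perforin, overlapped between genotypes at 48610.3 and 40576 against 49142 and 46216.

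Among the called cytokines, Spp1, which encodes osteopontin, was at 3297 and 3124 normalized counts in the KO-labelled pair against 5785 and 6268, and Csf1, the macrophage growth factor, at 2156 and 2539 against 4071 and 4432. Both had close replicates. Csf2, which encodes GM-CSF, was at 854 and 220.3 against 170.5 and 175, so 1 KO-labelled library stood far above the other 3. Granzymes share sequence with their copies, so a split of reads between them is uncertain.

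Of 15 NK-type receptor genes DESeq2 called Tyrobp and Fcer1g, signalling adaptors that myeloid cells also express, higher and Klra3 lower, and limma and edgeR called none (2 higher and 1 lower unadjusted). Klra3 was at 462 and 389 normalized counts in the KO-labelled pair and at 947 and 1022 in WT-labelled ones, and as a gene with near-identical relatives it is uncertain. Cx3cr1, a chemokine receptor of effector-like exhausted cells, was at 3618 and 2347 against 3599 and 3576, which overlap. In the chemokine receptor and adhesion list DESeq2 called 2 of 26 higher, Ccr7 and Cd83, and limma and edgeR none (4 higher and 4 lower unadjusted). Beside both lists, the shares over all tested genes were 2.52% higher and 0.510% lower with DESeq2, and 6.78% higher and 7.46% lower unadjusted.

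The lysosome and cathepsin list of 21 genes held Ctse as its one limma call. The list's median was 0.08. DESeq2 called 4 members higher, Cd63, Ctsh, Cst3 and Ctsz, and 1 lower, Ctse (5 higher and 1 lower unadjusted). The shares over all tested genes were 2.52% higher and 0.510% lower with DESeq2, and 6.78% higher and 7.46% lower unadjusted. Ctsb was at 34811 and 34018 normalized counts in the KO-labelled pair against 33024 and 34098, and Ctsd at 87429.7 and 88065 against 99188 and 94559. Cst3, the protease inhibitor cystatin C that macrophages and dendritic cells make in quantity, was at 13662 and 11163 against 7040.2 and 5895.

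T cell receptor signalling genes had no call by limma, edgeR or DESeq2 among 32 tested (5 lower and 0 higher at an unadjusted limma p under 0.05), with 17 members lower without overlap and a median of -0.10 that came to -0.03 after centring on the median gene. The shares over all tested genes were 28.2% lower without overlap, and 7.46% lower and 6.78% higher unadjusted. Cell cycle genes likewise had no call among 40 (7 lower and 0 higher unadjusted), with a median of -0.10, or -0.02 after that centring. Mki67, a marker of cycling cells, was at 16560.4 and 18025 normalized counts in the KO-labelled pair and at 22506 and 20198 in WT-labelled ones (log2 fold change -0.30, limma adjusted p = 0.353). Genes of IL-2 and gamma-chain signalling (27 tested, median -0.13) had no call by these 3 tools, with 1 higher and 1 lower unadjusted. Genes of glycolysis and hypoxia (25 tested, median 0.10) had none either, with 2 higher and 2 lower unadjusted.

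Counts for further pathway lists follow, in none of which limma or edgeR made a call. DESeq2 called 2 of 25 type I interferon genes higher (Ifitm3 and Rtp4), 1 of 26 cholesterol and fatty acid genes (Scd1), and in the immediate-early and heat-shock list of 24 it called Atf3 higher and Hspa1a lower. Unadjusted limma counts higher and lower were 4 and 2, 1 and 5, and 2 and 3 in these lists. The 5 type 2 cytokine genes had no DESeq2 call and 1 gene higher unadjusted. Of 18 BTB zinc finger factors DESeq2 called 4 higher, Bach2, Zbtb20, Bcl6 and Zbtb32 itself, while the list's median was -0.17 and 4 genes were higher and 2 lower unadjusted. Zbtb20 was at 934 and 772 normalized counts in the KO-labelled pair against 398 and 511. For all these lists, the shares over all tested genes were 2.52% higher and 0.510% lower with DESeq2, and 6.78% higher and 7.46% lower unadjusted.

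Ribosomal protein and respiratory chain genes stood higher, the former with wide replicates. All 39 ribosomal protein genes listed had a positive log2 fold change, with a median of 0.47, and DESeq2 called 9 higher and limma and edgeR none (11 higher unadjusted). Without each library in turn the median ran from 0.17 to 0.81, lowest without WT-labelled replicate 2. Replicates differed by a median of 0.46 in the KO-labelled pair and 0.58 in the WT-labelled pair, as much as the genotypes did, and the genotypes overlapped in 22 of the 39. Rps19 was at 117129 and 97867 normalized counts in the KO-labelled pair and at 75394 and 58915 in WT-labelled ones. Of 36 oxidative phosphorylation genes 28 were positive, the median was 0.34 and DESeq2 called 3 higher, limma and edgeR none (11 higher unadjusted). Without KO-labelled replicate 1 the median was 0.13. Both KO-labelled libraries lay above both WT-labelled ones in 21 of these genes and below them in 4. Their replicates differed by a median of 0.28 in the KO-labelled pair and 0.17 in the WT-labelled pair. Over all tested genes 19.9% lay above and 28.2% below without overlap. DESeq2 called 2.52% of all tested genes higher, and 6.78% were higher unadjusted.

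**Figure D4:**
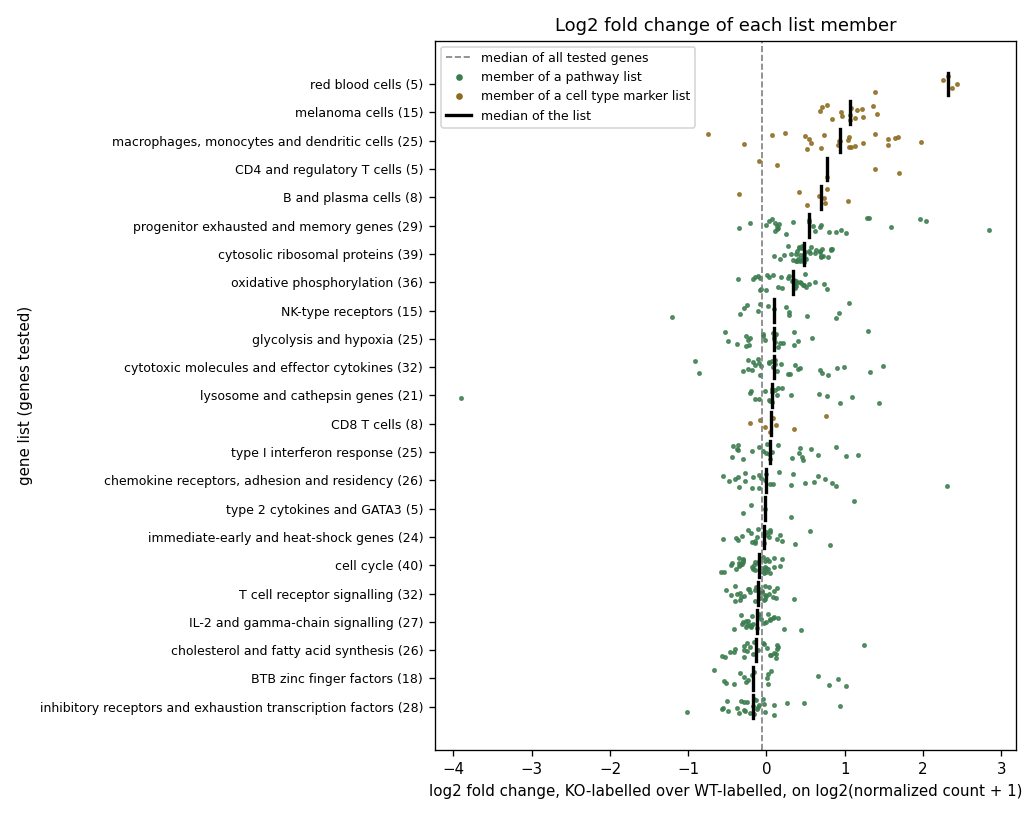
Log2 fold change (KO-labelled minus WT-labelled) of each tested gene, 1 point per gene, for the gene lists, with the list median. The progenitor and memory list has its median at 0.55, inhibitory receptors and exhaustion factors at -0.17, and the melanoma, macrophage and red blood cell markers lie at 1.07, 0.94 and 2.32.

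Markers of melanoma, myeloid and red blood cells stood higher in KO-labelled libraries, while the 3 endothelial markers tested had no common direction. In bulk samples a larger share of such cells and more of their RNA per cell cannot be told apart. All 15 melanoma markers tested were higher in both KO-labelled libraries than in both WT-labelled ones, where 19.9% of all tested genes were, with a median log2 fold change of 1.07. Pmel was the one limma call among them, and DESeq2 called 13 higher, against 2.52% of all tested genes. Their summed level was 73909 and 77545 normalized counts in the KO-labelled pair and 35801 and 37302 in WT-labelled libraries. Dct, an enzyme of melanin synthesis, was at 13193 and 12324 against 5958 and 6221, and Tyr, the rate-limiting enzyme of that pathway, at 1188 and 1359 against 389 and 624.

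Of 25 markers of macrophages, monocytes and dendritic cells, 20 lay higher without overlap and 1 lower, and DESeq2 called 14 higher, limma and edgeR none (17 higher unadjusted). The median was 0.94, and the sums were 113458 and 100823 normalized counts against 49605 and 45931. Over all tested genes 19.9% lay higher and 28.2% lower without overlap. DESeq2 called 2.52% of all tested genes higher, and 6.78% were higher unadjusted. The invariant chain gene Cd74 was at 40812 and 38852 against 16993 and 16787, and the MHC class II gene H2-Ab1 at 12156 and 9857 against 3735 and 3284. Lyz2, lysozyme of myeloid cells, was at 9109.9 and 7017 against 4935 and 4639.8. Not each marker stood apart: Xcr1, Itgam and Mrc1, for example, overlapped between genotypes.

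The 5 red blood cell markers tested summed to 17857 and 10643 normalized counts in the KO-labelled pair and to 3412 and 2138 in WT-labelled ones, with a median of 2.32 and no overlap in any of the 5. Of the 8 B cell markers 6 lay higher without overlap (median 0.70), and DESeq2 called 1, Ighm. In the 5 CD4 and regulatory T cell genes the median was 0.78 with no call by the 3 tools (3 higher unadjusted). Over all tested genes 19.9% lay higher without overlap, DESeq2 called 2.52% higher and 6.78% were higher unadjusted. Of the neutrophil list only Csf3r and Il1b of 8 genes were tested, of the endothelial list 3 of 7, of the fibroblast list 2 of 7 and of the platelet list 1 of 5. Csf3r was called higher by DESeq2, and the other genes of these 4 lists were not called. The endothelial median was -0.65, and without each library in turn it ran from -0.71 to -0.05, the latter without KO-labelled replicate 1. Pecam1, an endothelial adhesion molecule that leukocytes also carry, was lower without overlap, at 859.8 and 929 normalized counts in the KO-labelled pair and at 1408 and 1399.7 in the WT-labelled pair. Esam and Emcn, with low means of 16.3 and 14.9 normalized counts, overlapped, at log2 fold changes of -0.85 and 1.21.

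CD8 T cell markers as a list differed little, with a median of 0.06 over 8 genes and summed levels of 469568 and 405233 normalized counts against 396781 and 360304. Trac, the constant region of the receptor alpha chain, was the one DESeq2 call, at 135314 and 102166 against 76873 and 62227. Several genes higher in KO-labelled libraries, among them Ccr7, Bcl6, Bach2, Cst3, Flt3 and Wdfy4, are also expressed by dendritic, myeloid or B cells. The summed myeloid markers that moved with them are given above. Summed B cell markers were at 4763 and 6181 normalized counts in the KO-labelled pair and at 3299 and 3218 in the WT-labelled pair. The part of other cells in the values of these genes, of Tcf7 and of the progenitor list was not tested.

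**Figure D5:**
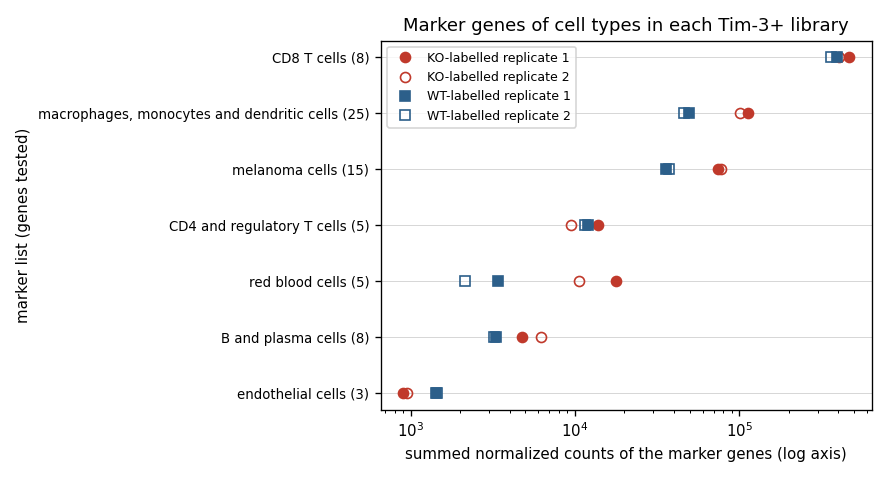
Summed normalized counts (log axis) of the tested markers of each cell type in the 4 libraries. Sums of melanoma, macrophage, red blood cell, B cell and CD8 T cell markers are higher in both KO-labelled libraries. The CD8 T cell sums are 469568 and 405233 in the KO-labelled pair and 396781 and 360304 in the WT-labelled pair. Endothelial sums are lower in both KO-labelled libraries, and those of CD4 and regulatory T cells overlap.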

How the data were processed

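Per the labels, polyA RNA was measured, from TRIzol extracts with libraries made at BGI. The submitters' processing notes name Bowtie2, RSEM, featureCounts, DESeq2, Trim Galore 0.4.4 and the mm10 build, with no roles. The strand of counting is not stated there, so antisense and overlapping genes are uncertain. The authors deposited a normalized signal per gene and library, gene counts over 1 size factor per library. Dividing by the smallest value of each library gave whole numbers within 0.01 for 100% of values. In 173 rows all 4 libraries stood at exactly 1 step, so 1 was taken off each to recover reads. Of 13107 unique names, 12663 were found in GENCODE M21, and a further 167 in RefSeq. A name held by more than 1 row (19 names) keeps each row apart.

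Values entered limma 3.58.1 (limma-trend, two-sided, prior degrees of freedom 4.48) in R 4.3.3 as log2(value + 1), without a block. The script was tested on simulated data. DESeq2 1.42.0 and edgeR 4.0.16 ran on recovered reads as alternatives. The others covered filters, pseudocounts, scalings, array weights, no trend, a replicate block, an adjusted p of 0.1 and leaving out each library. Libraries of unselected OT-I cells were normalized separately and not used here. Named genes were Zbtb32, Havcr2, called genes, the 12 largest changes each way at a mean of at least 100 with replicates differing by less than 0.5 times the change (unnamed models, pseudogenes and receptor segments left out), the 8 and 4 widest KO-labelled and WT-labelled replicate differences at that mean, called or most abundant list members, and Tcf7, Ctse, Pmel, Pdcd1, Tox, Entpd1, Gzmb, Ifng, Prf1, Slamf6, Id3, Il7r, Ccr7, Cx3cr1 and Mki67. Members and lists were chosen with earlier results of these data known, and further genes, such as list members called by DESeq2 only, after their values were seen. Some named items are not reported here.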

Additional observations from a re-analysis of the deposited data

How the results depend on the processing

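The 3 calls (2 higher, 1 lower) depended on the settings. Counts higher and lower were 16 and 1 at a mean of 50 or more, 4 and 1 with a pseudocount of 8, 14 and 1 with centring on the median gene and also with upper-quartile scaling, 19 and 2 with array weights (0.58 for each KO-labelled and 1.72 for each WT-labelled library), 317 and 64 with DESeq2, and 18 and 2 at an adjusted p under 0.1. A pseudocount of 0.5 gave 2 and 1. edgeR gave 1 and 1 in 3 fits, without Pmel (edgeR adjusted p = 0.0505 with TMM). Ctse, Tcf7 and Pmel kept their calls in all of these but edgeR. No filter gave 0 and 0 (1805 genes at an unadjusted p under 0.05), and limma without the trend 0 and 0 (1576). Leaving out each library gave 0 to 25 higher and 0 to 1 lower. Without KO-labelled replicate 1 limma called 0 higher and 1 lower (2303 unadjusted), and without KO-labelled replicate 2 it called 0 and 0 (3601), while without WT-labelled replicate 1 or 2 it called 25 or 7 higher and 1 lower. The lone library is then assumed to vary like the other genotype. The median replicate difference ran from 0.265 to 0.289 in the KO-labelled and from 0.154 to 0.169 in the WT-labelled pair over the filters, pseudocounts and scalings. Ctse, Tcf7 and Pmel kept their direction in every alternative run. Of 114 named genes 29 changed sign in at least 1 alternative, with none of the 29 called in the reported test or where its sign changed. The cause of these shifts was not tested, and 2 libraries a genotype limit every count. With the replicate number as a block the counts were 453 and 391. The labels do not say that a number marks a shared animal or batch, and with 2 pairs the correlation over genes of the replicate differences was 0.14 over all genes, 0.84 over the 995 genes with a mean of at least 10000 and 0.07 under a mean of 1000. Whether the numbers pair the samples is not settled by these values.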

Other observations

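Genes outside the lists, chosen after their values were seen, are given as values. Trbv12-1, a beta chain variable gene of the OT-I receptor, was at 54707 and 49461 normalized counts in the KO-labelled pair and at 22018 and 21868 in WT-labelled ones (log2 fold change 1.25, limma adjusted p = 0.0508). The 9 tested Trav14 genes, which hold the alpha chain segment of that receptor and near-identical copies, all had a positive fold change, with a median of 1.03, and summed to 71736 and 56392 against 34756 and 28202. The 23 other alpha variable genes went the other way in 17 cases, with a median of -1.32 and sums of 829 and 836 against 1620 and 1590, and none was called (smallest limma adjusted p = 0.24).

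All 13 mitochondrial protein-coding genes had a positive fold change, with a median of 0.74. Both KO-labelled libraries lay above both WT-labelled ones in 12 of them, limma called none and DESeq2 called 11. Over all tested genes 19.9% lay above without overlap, and DESeq2 called 2.52% higher.

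Some abundant RNAs were higher in replicate 1 of both genotypes, beside a difference between the genotypes. Over the 86 ribosomal protein genes the median log2 fold change between genotypes was 0.49, with 85 positive. The median log2 difference of replicate 1 over replicate 2 was 0.53 in the KO-labelled pair and 0.67 in the WT-labelled pair, with 83 and 80 genes higher in replicate 1. Lars2, the mitochondrial leucyl-tRNA synthetase gene, was at 142810 and 66683 normalized counts in the KO-labelled and at 77928 and 30188 in the WT-labelled libraries. The ribosomal RNA entry Rn18s-rs5 was at 970286 and 654671 against 798434 and 360115. The genotypes overlapped in both. Of 995 genes with a mean of at least 10000, 517 were higher in replicate 1 of both genotypes. Among all 12559 tested genes, 3896 were higher and 4013 lower in replicate 1 of both genotypes.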
